A study of Rattus norvegicus with 24 samples.

Results

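PD-L1, the product of Cd274, and 8 genes of the interferon response were followed in the liver of rats fed cholesterol with or without kiwifruit. The members were Cd274, Stat2, Irf1, Irf7, Mx1, Mx2, Ifit3, Oas1a and Gbp2. They were taken as every non-control probe of the arrays that carries one of these symbols, which gave 10 probes among 30367 and 9 genes among 19958. Irf1 had 2 probes and each of the others 1. The members were selected on these data, Cd274 being chosen by the rise of its measured level over Ch, so its values are given as a description and were not tested.

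Gene expression was measured with 1-colour Agilent arrays, 1 array per rat. All rats were male Wistar rats, and all 3 groups received a diet with 1% cholesterol, so that there was no group without cholesterol. Ch received this diet alone, ChGENE received it with 5% freeze-dried Geneva kiwifruit (Actinidia arguta) and ChHAYW with 5% freeze-dried Hayward kiwifruit (Actinidia deliciosa). Liver was taken after 42 days from 8 rats per group, and the comparisons asked how each cultivar changed the hepatic expression profile of rats on the cholesterol diet. The ages of the rats are not given in the sources used here. The liver was whole tissue, and fewer cells of a type and less RNA per cell cannot be told apart in it.

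Interferons are secreted proteins that warn cells of infection. Type I interferons bind a receptor whose kinases activate STAT2, which acts with IRF9 at the interferon-stimulated response element of target genes, while interferon gamma acts through the gamma activated site. PD-L1 is a surface protein that binds PD-1 on T cells and restrains them, and in many cells interferon gamma raises it through IRF1. In the liver it is known from Kupffer cells, sinusoidal endothelial cells and, after stimulation, hepatocytes.

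The sequences below show what was measured for Cd274 and which of the other members carry the response elements near their start sites. The Cd274 probe was a 60-base oligonucleotide on the plus strand of chr1:233061619-233061678 of build rn4, the build in the file headers, and began at base 583 of the transcript, within an exon. Its level rested on 2 spots per array, and it is printed in lower case throughout because no part of it is marked.
Cd274 probe: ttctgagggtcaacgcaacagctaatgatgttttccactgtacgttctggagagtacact

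Promoters of 8 of the 9 members were found among 33469 RefSeq promoters of build GRCr8, each reaching from 250 bases before to 50 bases after the start site. They were searched on both strands for the core of the interferon-stimulated response element (GAAA, any 2 bases and GAAA, or TTTC, any 2 bases and TTTC) and for the gamma activated site (TTC, any 3 bases and GAA). The first was in 3.92% of all these promoters and in 4 of the 8 member promoters, those of Irf7, Ifit3, Oas1a and Gbp2. The second was in 8.87% of all and in 2 of the 8, those of Irf1 and Oas1a. A match describes the letters in this window and no more. Neither motif was in the windows of Cd274, Stat2 and Mx1. Stretches around 1 match or 1 overlapping pair of matches per gene follow, with the matched letters in capitals. They are Irf1 on the plus strand of chr10:38417778-38417816, Irf7 on the minus strand of chr1:205800068-205800107, Ifit3 on the plus strand of chr1:241527267-241527306, Oas1a on the plus strand of chr12:41330410-41330455 and Gbp2 on the plus strand of chr2:234005681-234005720.
Irf1: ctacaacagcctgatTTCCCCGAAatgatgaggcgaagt
Irf7: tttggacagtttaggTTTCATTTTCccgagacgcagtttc
Ifit3: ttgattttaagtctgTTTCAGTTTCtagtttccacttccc
Oas1a: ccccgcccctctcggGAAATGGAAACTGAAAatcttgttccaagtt
Gbp2: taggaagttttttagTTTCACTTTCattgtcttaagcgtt

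The matches to the interferon-stimulated response element lay close before the start sites. The match began 69 bases before the start site in the Irf7 promoter (position -69), and at positions -44, -41 and -31 in those of Ifit3, Oas1a and Gbp2. Oas1a had a second, overlapping match at position -35 and a gamma activated site at position -199. The gamma activated site of Irf1 lay at position -142.

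Levels are log2 intensities minus the 75th percentile of the array's probes, so a level of 0 is the 75th percentile and a difference of 1 is a 2-fold change. The Ch arrays were the dimmest, with 75th percentiles between intensities of 188 and 653 (median 421). Those of ChGENE lay between 388 and 775 (median 675) and those of ChHAYW between 409 and 1049 (median 731). A probe was counted as above background where at least 0.5 of its spots were marked well above background by the scanner software. After scaling, the median difference over all 30367 probes was -0.16 for ChGENE against Ch, -0.18 for ChHAYW against Ch and -0.01 for ChGENE against ChHAYW. Over the probes above background on every array of at least 1 group of the comparison, it was -0.02, -0.01 and -0.01. The shifts from Ch thus lay largely in dim probes, which the all-probe medians and shares below include. Differences of single genes should be read beside both sets of medians. Each diet was on its own slide, so that in every comparison the diet cannot be told apart from the slide.

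In each diet, 1 pair of arrays was much closer than any others. These were Ch 1 and Ch 2, ChGENE 4 and ChGENE 5, and ChHAYW 6 and ChHAYW 7. Over 14045 probes above background on all 24 arrays, their root mean square log2 difference was 0.183 to 0.220, while it was 0.345 to 1.14 in the other pairs. Between 25 and 44 of these probes differed by more than 1 on the log2 scale within a close pair, against at least 212 in every other pair. The close pairs still differed more than spots of 1 probe within an array, by 1.26 to 1.45 times (at least 2.14 times in all other pairs), and they were kept as separate rats, as labelled. With each close pair averaged, leaving 7 values per diet, no probe of any comparison passed the test, whereas 97 probes passed for ChGENE against Ch and 2 for ChGENE against ChHAYW with all arrays. Whether the arrays of a close pair came from separate livers was not tested, and every p below rests on their being separate.

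Cd274 was near the background of these arrays in Ch and somewhat above it in most ChGENE rats and in some ChHAYW rats. Its level was lowest at -6.41, with a median of -5.70 and a highest value of -5.30 in the 8 Ch rats. It ran from -5.03 through a median of -4.49 to -3.99 in ChGENE, and from -5.72 through a median of -4.76 to -2.82 in ChHAYW. All 8 ChGENE rats were above all 8 Ch rats, while the ChHAYW rats spread over both ranges, with rats 1, 2 and 7 inside the Ch range and rats 3, 4, 5, 6 and 8 above it.

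The mean Cd274 level was -5.75 ± 0.34 in Ch, -4.53 ± 0.38 in ChGENE and -4.61 ± 1.03 in ChHAYW (SD, n = 8 each). The difference was 1.22 (SE 0.18) for ChGENE minus Ch and 1.13 (SE 0.38) for ChHAYW minus Ch, and the cultivars differed by 0.08 (SE 0.39). In ChGENE against Ch, 0.0494% of all probes were higher in ChGENE with no overlap between the groups, and Cd274 was among them by the choice that made it a member.

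**Figure D1:**
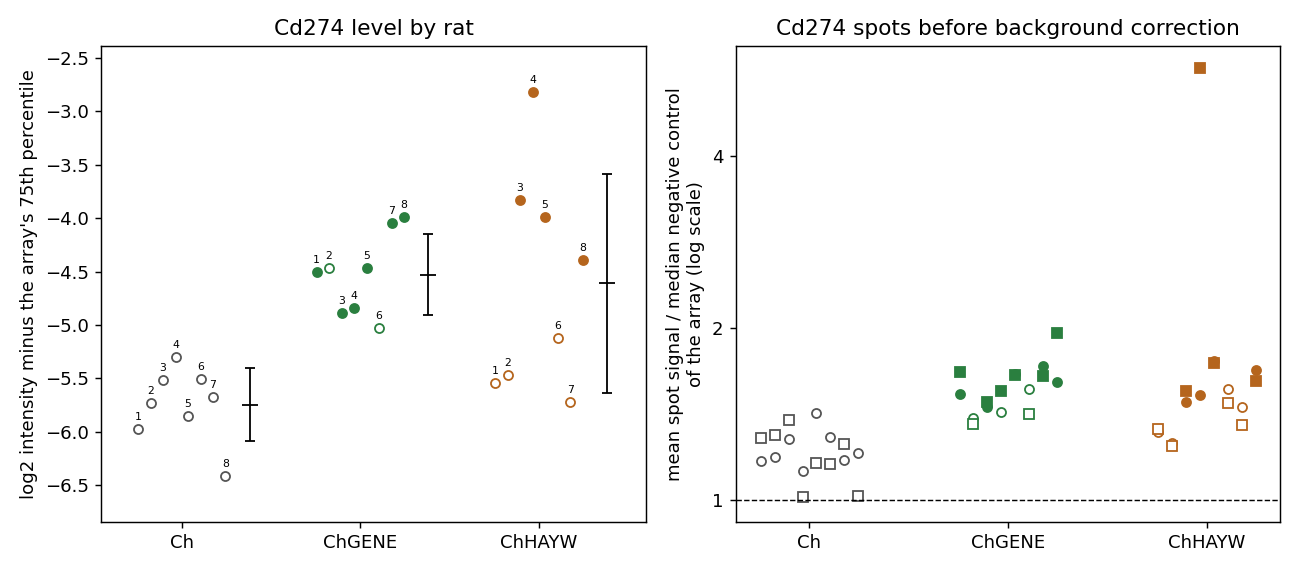
Left, Cd274 level of each rat (log2 intensity minus the array's 75th percentile) by diet, with rat numbers, filled points above background, open points not, and bars for mean ± SD. Right, the signal of each of the 2 spots (circle and square) before background correction, divided by the median of the array's negative control spots, on a log scale, with filled points well above background and a dashed line at 1. All Ch points are open, between 1.01 and 1.42 times the negative controls, and 1 spot of ChHAYW rat 4 stands at 5.71.

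The probe was above background in 0 of 8 Ch rats, in 6 of 8 ChGENE rats and in 4 of 8 ChHAYW rats by the software's stricter mark. By its other mark, a test of the spot against its background, 6 of 8 Ch rats and all 8 rats of each kiwifruit diet passed, so the number of rats with a detected signal depended on the mark. Raising each Ch array to the lowest level well above background on it changed Ch rats 1 and 4 alone and moved the Ch mean from -5.75 to -5.56. The means of -4.53 in ChGENE and -4.61 in ChHAYW were then 2.05-fold and 1.93-fold higher. These folds are not lower limits, since rats of both kiwifruit groups were themselves not well above background and the direction turned with the background correction.

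The spots themselves show how dim this gene was. Before background correction, the Cd274 spots of Ch had mean signals of 65.7 to 100.2, which was 1.01 to 1.42 times the median of the 308 negative control spots of the same array. In ChGENE they had 79.5 to 113.5, or 1.36 to 1.96 times, and in ChHAYW 87.9 to 359.0, or 1.24 to 5.71 times. The scanner software had replaced 7 of the 16 Ch spot values by surrogates near background and none (0) in either kiwifruit group. Of 16 spots per diet, 0 in Ch, 10 in ChGENE and 8 in ChHAYW were marked well above background, and 9, 16 and 16 passed the test against background.

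ChHAYW rat 4, the highest rat for Cd274, had 2 spots that disagreed, with corrected intensities of 27.2 and 297.4. At the dimmer spot of every array its level was -4.54, below ChHAYW rats 3, 5 and 8 at -3.91, -4.02 and -4.45. Without this rat the ChHAYW difference was 0.88 instead of 1.13. With the dimmer of the 2 spots used on every array, the differences from Ch were 1.47 in ChGENE and 1.27 in ChHAYW.

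The Cd274 difference stayed between 1.12 and 1.29 for ChGENE minus Ch when each rat of these groups was left out in turn, with the scanner software's own background correction. The direction of the difference depended on that correction. With normexp correction and an offset of 50 in its place, the difference became -0.20 (SE 0.17) for ChGENE minus Ch and -0.20 (SE 0.24) for ChHAYW minus Ch. This offset was larger than the median Cd274 intensity under the software's correction, 7.41 in Ch, 28.9 in ChGENE and 27.5 in ChHAYW. How far the offset alone moved so dim a probe was not tested, so the normexp fit cannot decide the direction. Under normexp the median of all probes was -0.33 and -0.38, so the probe was then higher than the median probe by less than the standard error of its difference.

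The genes of the PD-1 receptor and of its other ligand were also dim. Pdcd1, which encodes the PD-1 receptor, was above background in 2 Ch, 4 ChGENE and 7 ChHAYW rats. Pdcd1lg2, which encodes the ligand PD-L2, was above background in 1 ChGENE rat alone of the 24. Levels of these probes cannot be compared with that of Cd274, since each probe has its own response.

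The other members were brighter, and 7 of them were above background in every rat at 1 probe each, the exception being Ifit3, which was not above background in Ch rat 4. None (0 of 9 probes) passed the test in any comparison, at a Benjamini-Hochberg adjusted p under 0.05 in limma with a change of 1.3-fold or more. Of all probes, 0.319% passed for ChGENE against Ch, 0% for ChHAYW against Ch and 0.00659% for ChGENE against ChHAYW. At an unadjusted p under 0.05, 0, 1 and 0 of the 9 member probes passed, against 24.6%, 22.8% and 5.93% of all probes. The median difference of the 9 probes was 0.36 for ChGENE against Ch, 0.59 for ChHAYW against Ch and 0.03 for ChGENE against ChHAYW. The all-probe medians beside it were -0.16, -0.18 and -0.01, or -0.02, -0.01 and -0.01 with dim probes filtered out. Of the 9 member probes 6, 6 and 5 had a difference above 0.

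**Figure D2:**
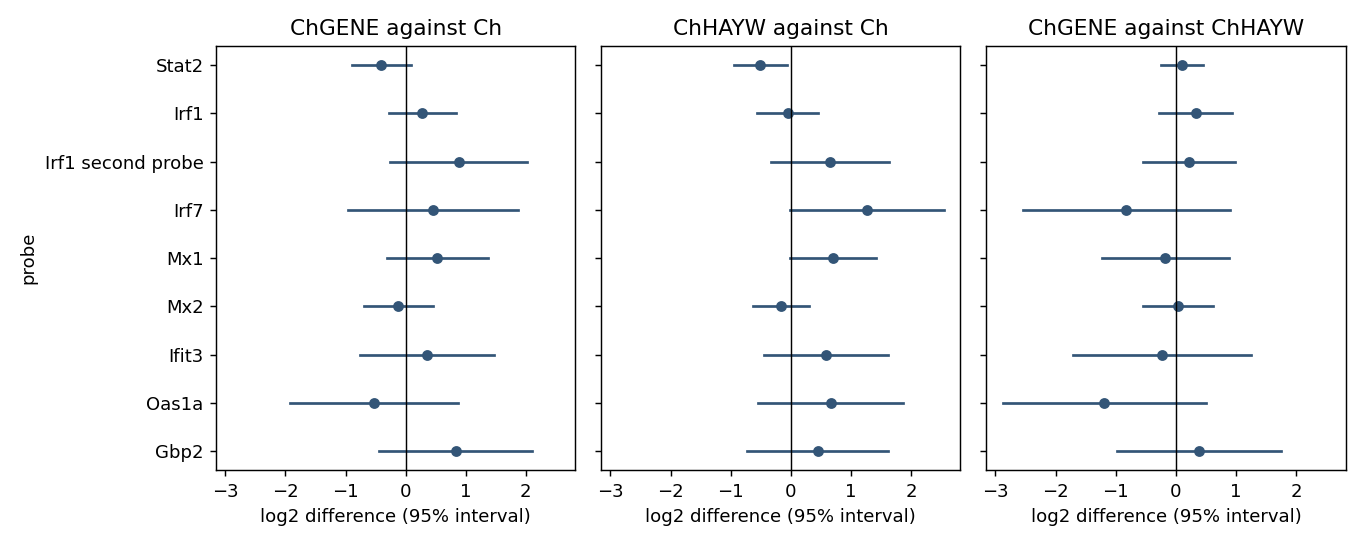
Difference of mean log2 levels with its 95% interval from limma for the 9 tested probes (rows) in the 3 comparisons (panels). All intervals cross 0 except that of Stat2 for ChHAYW against Ch, which runs from -0.95 to -0.06, and the intervals of Irf7 and Oas1a are among the widest.

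Stat2, the signal carrier of the type I receptor, was the member with the lowest p. Its level ran from 2.88 through a median of 3.64 to 4.52 in Ch, from 2.48 through 3.16 to 3.65 in ChGENE and from 2.85 through 3.02 to 3.62 in ChHAYW. Ch rats 4 and 7 had the highest levels, and all other Ch rats lay within or near the range of the kiwifruit groups, so that the groups overlapped. The difference was -0.40 (SE 0.23, limma adjusted p = 0.282) for ChGENE minus Ch and -0.50 (SE 0.21, limma adjusted p = 0.156, unadjusted p = 0.0291) for ChHAYW minus Ch. It lost size without Ch rat 7, when it was -0.27 and -0.37. Ch rats 4 and 7 were scanned at 75th percentiles of 188 and 335, the lowest of the 8 Ch arrays, and the part of this in their Stat2 level was not tested.

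Irf1 encodes the transcription factor through which interferon gamma induces many of its targets, PD-L1 among them. The brighter probe, near the end of the transcript, ran from 1.90 through 2.67 to 2.98 in Ch, from 2.08 through 2.81 to 3.68 in ChGENE and from 1.85 through 2.31 to 3.54 in ChHAYW. The groups overlapped, with ChGENE rats 1, 4, 5 and 8 and ChHAYW rat 5 above all Ch rats. The difference was 0.28 (SE 0.26, limma adjusted p = 0.528) for ChGENE minus Ch and -0.05 (SE 0.24, limma adjusted p = 0.905) for ChHAYW minus Ch.

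The second Irf1 probe crossed an exon junction, spanning 235 genomic bases, and had 1 spot per array. It was not above background in Ch rats 4 and 7, which were also its lowest values at -5.30 and -5.56. Its difference was 0.88 (SE 0.54, limma adjusted p = 0.312) for ChGENE minus Ch and 0.66 (SE 0.46, limma adjusted p = 0.371) for ChHAYW minus Ch, so the 2 probes of Irf1 had opposite signs in the second of these. Without Ch rat 7 the differences of this probe were 0.57 and 0.35.

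Irf7 encodes the factor that amplifies type I interferon production and is itself a target of it. Its level ran from -1.31 through a median of 0.29 to 1.13 in Ch, from -1.91 through 0.79 to 4.31 in ChGENE and from -0.63 through 1.21 to 4.08 in ChHAYW. ChGENE rat 8 and ChHAYW rats 3 and 5 stood far above all others. ChHAYW rats 2, 6 and 7, at 1.60, 1.23 and 1.18, and ChGENE rat 6 at 1.23 were also above all Ch rats. The remaining kiwifruit rats lay within or below the Ch range. The difference was 0.45 (SE 0.67, limma adjusted p = 0.706) for ChGENE minus Ch and 1.27 (SE 0.61, limma adjusted p = 0.201) for ChHAYW minus Ch. Without ChGENE rat 8 the first of these was -0.08, and without ChHAYW rat 3 the second was 0.89.

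Mx1 and Mx2 encode dynamin-like GTPases that block virus replication. Mx1 lay between -0.0024 and 0.87 in Ch with a median of 0.51, between 0.15 and 3.80 in ChGENE with a median of 0.66 and between 0.32 and 2.89 in ChHAYW with a median of 0.77. ChGENE rat 8 and ChHAYW rats 3 and 5 were again the highest. ChGENE rats 4 and 5 and ChHAYW rat 2, at 1.01, 1.06 and 1.23, were also above all Ch rats, and the other rats overlapped. The difference in Mx1 was 0.53 (SE 0.40, limma adjusted p = 0.425) and 0.70 (SE 0.34, limma adjusted p = 0.211) from Ch in ChGENE and ChHAYW. Without ChGENE rat 8 the first was 0.13, and without ChHAYW rat 3 the second was 0.46.

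The Mx2 levels of the 3 diets overlapped over most of their range. They ran from 5.03 through 5.25 to 6.23 in Ch, from 4.58 through 5.41 to 6.71 in ChGENE and from 4.76 through 5.18 to 5.93 in ChHAYW. ChGENE rat 8 was the highest and Ch rats 4 and 7 followed it. The difference from Ch was -0.12 (SE 0.27, limma adjusted p = 0.808) in ChGENE and -0.16 (SE 0.22, limma adjusted p = 0.661) in ChHAYW.

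Ifit3 belongs to the proteins that bind foreign RNA and act with the sensor pathway. It lay between -3.57 and -2.60 in Ch with a median of -2.95, between -4.24 and 0.52 in ChGENE with a median of -3.23, and between -4.42 and -0.18 in ChHAYW with a median of -2.74. The kiwifruit groups thus reached both above and below the Ch rats, and both medians lay within the Ch range. The difference was 0.36 (SE 0.53, limma adjusted p = 0.707) for ChGENE minus Ch and 0.59 (SE 0.49, limma adjusted p = 0.448) for ChHAYW minus Ch. Without ChGENE rat 8 the first was -0.11.

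Oas1a encodes a synthetase of short oligoadenylates that activate RNase L. Its level ran from -1.71 through -0.69 to 0.37 in Ch, from -4.02 through -0.96 to 2.00 in ChGENE and from -2.68 through 0.25 to 2.33 in ChHAYW. ChGENE rats 1 and 3 and ChHAYW rat 1 were far below the Ch rats, while ChGENE rat 8 and ChHAYW rats 3 and 5 were far above them. The difference was -0.53 (SE 0.66, limma adjusted p = 0.650) for ChGENE minus Ch, 0.66 (SE 0.57, limma adjusted p = 0.461) for ChHAYW minus Ch and -1.19 (SE 0.80, limma adjusted p = 0.741) for ChGENE minus ChHAYW. The first of these was -0.99 without ChGENE rat 8 and -0.13 without ChGENE rat 3, and the second was 0.32 without ChHAYW rat 3 and 1.04 without ChHAYW rat 1. The rat Oas1 genes are a family of near copies, and how much of this signal came from them was not tested.

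Gbp2 encodes an interferon gamma-induced GTPase that acts on intracellular microbes. It ran from -1.35 through -0.15 to 2.04 in Ch, from -1.49 through 0.82 to 2.67 in ChGENE and from -1.15 through 0.47 to 2.45 in ChHAYW. Ch rat 6 was high within its group, as were ChGENE rats 4, 5 and 8 and ChHAYW rats 3 and 5, and the groups overlapped over most of their range. The difference was 0.83 (SE 0.60, limma adjusted p = 0.400) for ChGENE minus Ch and 0.45 (SE 0.56, limma adjusted p = 0.613) for ChHAYW minus Ch. Without ChGENE rat 8 the first was 0.57, and without ChHAYW rat 5 the second was 0.16.

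**Figure D3:**
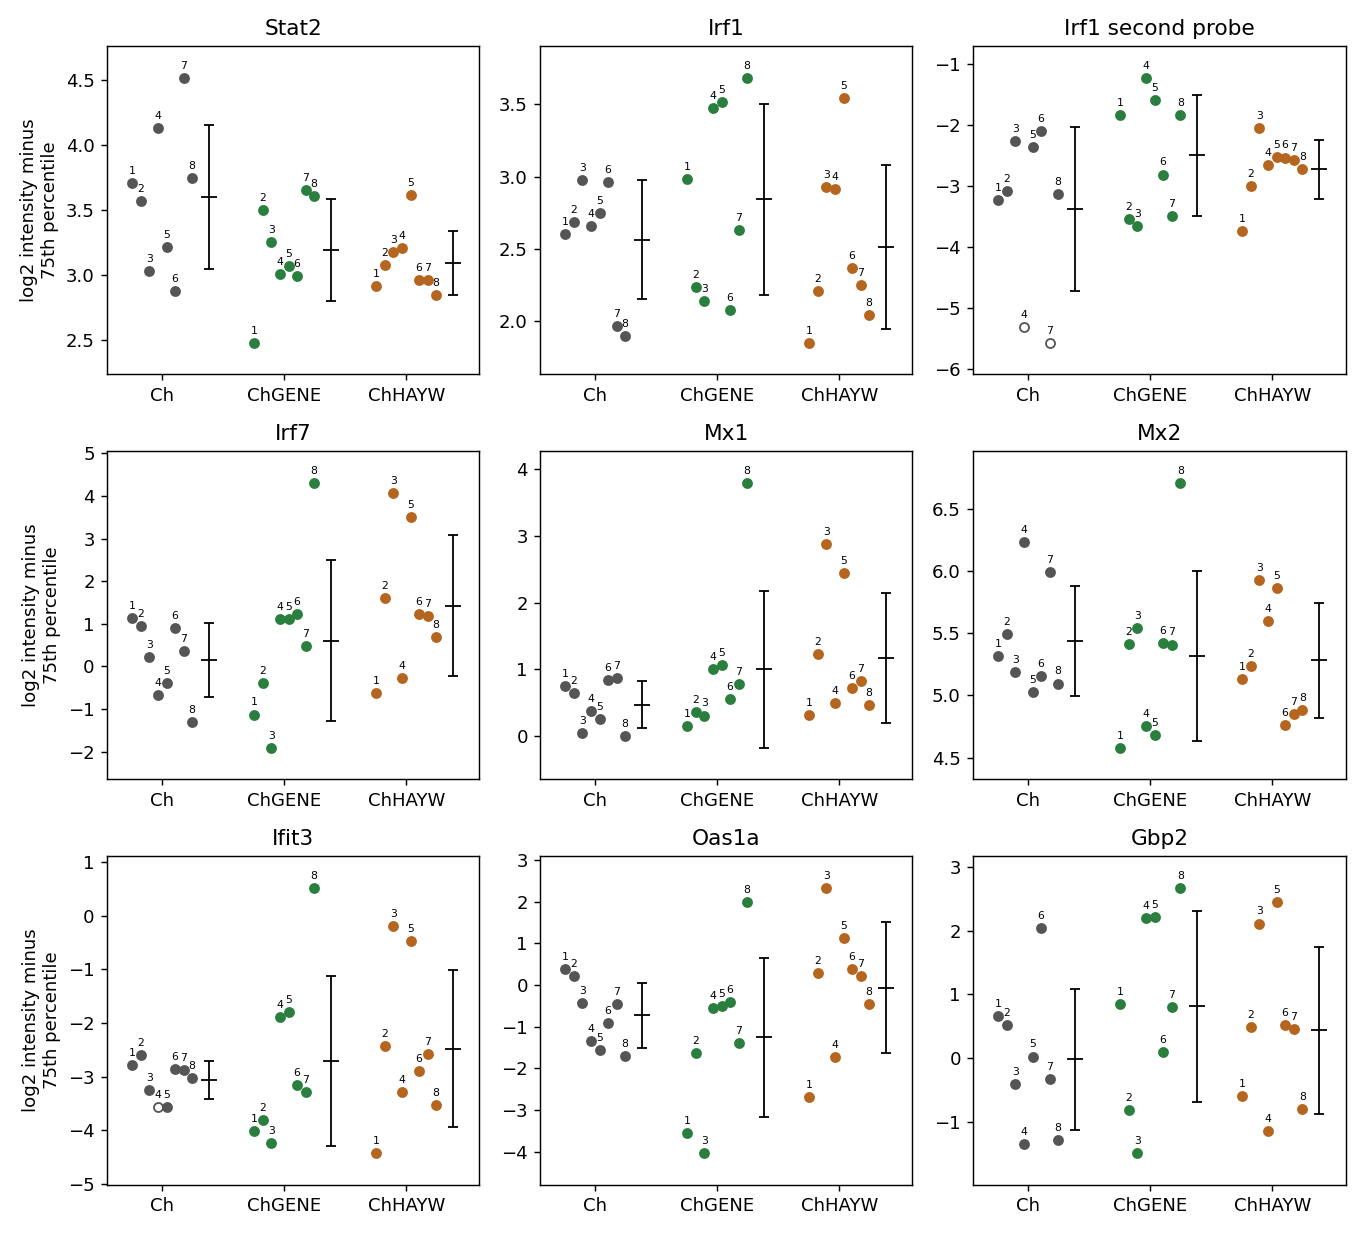
Level of each rat (log2 intensity minus the array's 75th percentile) for the 9 tested probes, by diet and with rat numbers, with open points not above background and bars for mean ± SD. ChGENE rat 8 and ChHAYW rats 3 and 5 are the highest rats of Irf7, Mx1, Ifit3 and Oas1a. The SD bars of these genes are longer in the kiwifruit groups than in Ch. Those of Stat2 and of the second Irf1 probe are longest in Ch.

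Irf7, Oas1a, Ifit3 and Mx1 spread widely among the rats of each kiwifruit diet. The highest ChGENE rat had 74.4 times the Irf7 level of the lowest, the highest ChHAYW rat 26.2 times and the highest Ch rat 5.44 times. For Oas1a these ranges were 64.9-fold, 32.2-fold and 4.24-fold, for Ifit3 27.1-fold, 18.9-fold and 1.95-fold, and for Mx1 12.6-fold, 5.94-fold and 1.83-fold, again in ChGENE, ChHAYW and Ch. The other tested members did not all go this way. Stat2 ranged 2.25-fold, 1.71-fold and 3.11-fold in ChGENE, ChHAYW and Ch, and the second Irf1 probe was also widest in Ch. Mx2 ranged 4.36-fold, 2.24-fold and 2.295-fold in the same order. Gbp2 ranged 17.9-fold and 12.1-fold in the kiwifruit diets but already 10.4-fold in Ch. The brighter Irf1 probe ranged 3.04-fold, 3.23-fold and 2.11-fold. A difference in spread between diets was not tested.

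The SD of Irf7, Oas1a, Ifit3 and Mx1 was high for this tissue in the kiwifruit diets. Over the 14045 probes above background on all arrays the median SD within a diet was 0.34 in Ch, 0.29 in ChGENE and 0.27 in ChHAYW. Irf7 had an SD of 0.87, 1.89 and 1.66 in these diets, which was above 96.7%, 99.8% and 99.9% of the probes. Mx1 had 0.35, 1.18 and 0.97, which was above 52.3% of them in Ch, 98.7% in ChGENE and 99.2% in ChHAYW. Stat2 stood at 81.3%, 72.0% and 43.4%.

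Rats at both ends made up this spread, and those named here were picked out after their values were seen. ChGENE rat 8 had 14.2 times the Irf7 level, 9.46 times the Mx1 level, 14.1 times the Ifit3 level and 10.4 times the Oas1a level of the median of the other 7 ChGENE rats. ChHAYW rat 3 had 7.48, 4.49, 6.53 and 4.32 times, and ChHAYW rat 5 had 5.06, 3.31, 5.33 and 1.89 times, the median of the other 7 ChHAYW rats in these genes. At the low end, ChGENE rats 3 and 1 had 0.124 and 0.213 times the Irf7 level and 0.0894 and 0.124 times the Oas1a level of the median of the others. ChHAYW rats 1 and 4 had 0.276 and 0.350 times for Irf7 and 0.127 and 0.249 times for Oas1a. Gbp2 was 3.67, 3.16 and 3.98 times higher and Stat2 1.45, 1.16 and 1.57 times higher in ChGENE rat 8 and ChHAYW rats 3 and 5. These rats are described singly, and no group was formed from them.

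The rats at the high end also led genes that are no members. Of 33 other type I target genes above background on all arrays, 26 had their highest ChGENE value in rat 8, which held the highest value of 6.09% of all such probes. In ChHAYW, rat 3 was among the highest 2 rats for 31 and rat 5 for 30 of the 33, against 40.5% and 25.7% of all such probes. Of 13 interferon gamma target genes, 10 had their highest ChGENE value in rat 8, and rats 3 and 5 were each among the highest 2 ChHAYW rats for 12.

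Whether Cd274 ranked the rats as these genes did depended on its spots. Rat 8 had the highest Cd274 level of ChGENE as well, 1.43 times the median of the others, and rats 3 and 5 followed rat 4 in ChHAYW at 2.46 and 2.20 times. The highest ChHAYW rat for Cd274 was rat 4, whose Irf7, Mx1, Ifit3 and Oas1a levels of -0.28, 0.50, -3.30 and -1.72 lay below the ChHAYW means. Its Gbp2 level of -1.15 also lay below the mean of 0.43. Its levels of Irf1 (2.92), the second Irf1 probe (-2.66), Stat2 (3.21) and Mx2 (5.60) lay above the ChHAYW means of 2.51, -2.72, 3.10 and 5.28. The Cd274 rank of rat 4 rested on 1 of its 2 discordant spots. At the dimmer spot of every array, ChHAYW rats 3 and 5 were the 2 highest of their diet and rat 4 the fourth, while in ChGENE rat 7 at -4.07 was above rat 8 at -4.38.

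Likeness was measured as the correlation of 2 genes over the 24 rats after each diet's mean was subtracted, and is given as a description without a p. The rats of a diet shared a slide, and both genes of a rat shared an array. Irf7 and Oas1a were the most alike (r = 0.95, Spearman rho 0.94), and r was 0.86 in Ch, 0.98 in ChGENE and 0.95 in ChHAYW. Mx1 and Ifit3 had r = 0.94, Irf7 and Ifit3 0.93, Irf7 and Mx1 0.91 and Irf7 and Gbp2 0.83. Irf7 and Oas1a kept r = 0.93 without ChGENE rat 8 and ChHAYW rat 3, the farthest from the median.

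Stat2 and Mx2 were also alike (r = 0.71, rho 0.71) and had r = 0.22 and 0.47 with Irf7. Their r was 0.79 in Ch, 0.72 in ChGENE and 0.81 in ChHAYW. In Ch both were highest in rats 4 and 7. These rats were among the highest 2 of Ch for 42.8% and 40.8% of all probes above background on all arrays. The part of the array scaling in this likeness was not tested. Mx1 and Mx2 had r = 0.68, which fell to 0.35 without ChGENE rat 8 and ChHAYW rat 3 and so rested on these rats. Stat2 had r = -0.08 with Irf1 and -0.10 with Gbp2, and both were opposite in Ch (-0.74 and -0.56) and ChHAYW (0.94 and 0.66).

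**Figure D4:**
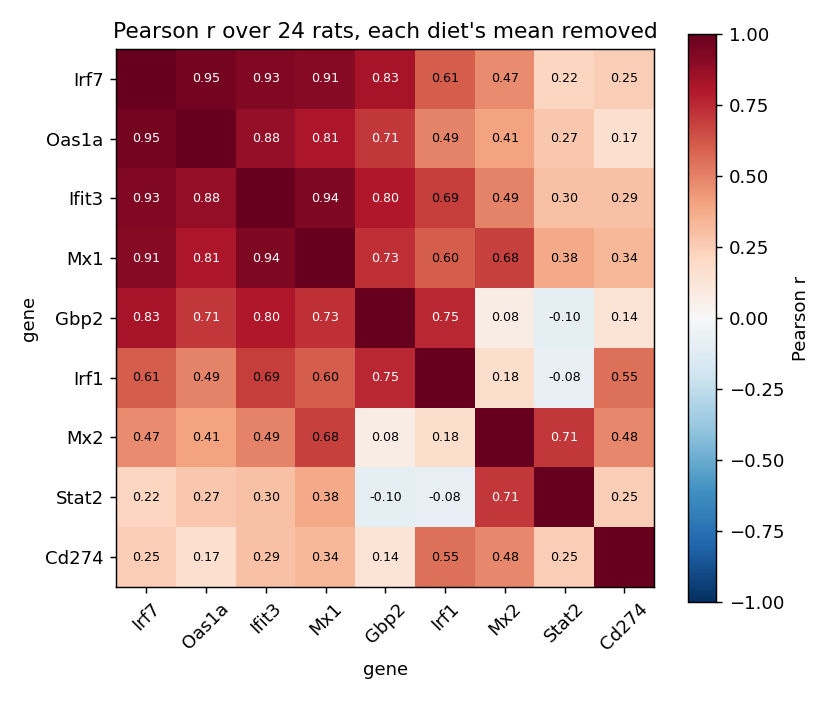
Pearson r between the levels of each 2 member genes over 24 rats after each diet's mean was removed, at the brighter probe of Irf1, on a colour scale from -1 to 1. The block of Irf7, Oas1a, Ifit3, Mx1 and Gbp2 holds values from 0.71 to 0.95, and Cd274 has values from 0.14 to 0.55 with the other genes.

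Cd274 was most like Irf1 at its brighter probe (r = 0.55, rho 0.61) and had r = 0.48 with Mx2, 0.34 with Mx1, 0.25 with Irf7 and 0.14 with Gbp2. Without ChHAYW rats 4 and 7, its farthest rats, r was 0.59 with Irf1 and 0.55 with Irf7. At the dimmer spot Cd274 had r = 0.52 with Mx2, 0.46 with Irf1, 0.43 with Mx1, 0.33 with Irf7 and 0.21 with Gbp2, so that Irf1 was no longer the gene most like it. The second Irf1 probe had r = 0.07 with Cd274, and -0.08 at the dimmer Cd274 spot. The likeness to Irf1 was thus not held at both of its probes. Most Cd274 values lay near background, so these correlations hold scanner noise to a degree that was not tested.

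Among 9038 genes above background on all arrays, those most like the mean of the 8 other members were Oasl2 (r = 0.97), RT1-N3 (r = 0.96), Cmpk2, Samd9l and Uba7 (r = 0.95 each). Oasl2 is an oligoadenylate synthetase-like protein, RT1-N3 a class Ib molecule of the rat major histocompatibility complex and Uba7 the activating enzyme of ISG15. Within diets their r was 0.53 to 0.80 in Ch, 0.98 to 0.99 in ChGENE and 0.94 to 0.98 in ChHAYW. The genes most like Cd274 were C1qtnf2 (r = 0.71), Fcrla (r = 0.69), Exoc3 (r = 0.67), Fam120a (r = 0.66) and Rcan3 (r = 0.65). C1qtnf2 had r = 0.82 in ChHAYW and -0.0047 in ChGENE, so its likeness was not held in each diet.

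The rest of the pathway was read from 173 listed genes, of which 163 had a probe and 162 were tested, without Cd274. Of these 0 were called in each of the 3 comparisons by limma. Before adjustment (p under 0.05, change of 1.3-fold or more) 18 were higher and 11 lower in ChGENE than in Ch, against 3.47% and 21.1% of all probes. For ChHAYW against Ch 15 were higher and 17 lower, against 3.05% and 19.7%, and for ChGENE against ChHAYW 8 were higher and 2 lower, against 3.09% and 2.85%. The medians of the 162 genes were 0.18, 0.10 and 0.05. The all-probe medians were -0.16, -0.18 and -0.01, or -0.02, -0.01 and -0.01 with dim probes filtered out.

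Most of the interferons themselves were not seen. Of 11 measured ligand genes 8 encode interferons, of which 5 were above background on no array. Ifng, the gene of interferon gamma, was above background in none (0) of the 24 rats, and Ifnb1, the gene of interferon beta, in 1 ChGENE rat. Tnf, the ligand above background in all rats, had mean levels of -3.26, -1.64 and -3.01 in Ch, ChGENE and ChHAYW. Its difference of 1.62 (SE 0.73, limma adjusted p = 0.164) between ChGENE and Ch did not pass. ChGENE rats 4 and 5, a close pair, were the highest 2 ChGENE rats for Tnf, and how far its difference rests on them was not tested. Ifna4, above background in 23 of the 24 rats, differed by 0.34 (SE 0.13, limma adjusted p = 0.101) between ChGENE and Ch.

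All 6 measured receptor genes were above background in some rats and 5 of them in all, and none was called. Ifnar2, a chain of the type I receptor, differed by 0.43 between ChGENE and ChHAYW (SE 0.18, limma adjusted p = 0.545). Ifngr1 and Ifngr2, the chains of the interferon gamma receptor, differed by 0.32 and 0.21 in the same comparison (limma adjusted p = 0.812 and 0.745). For all 5 receptor genes above background in all rats, the close pair of ChGENE rats 4 and 5 were the highest 2 ChGENE rats. They were among the highest 2 for 21.4% and 20.9% of all such probes. How far the receptor differences rest on these rats was not tested.

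The 6 measured transducers were above background in all rats. Stat3, the carrier of the interleukin 6 signal, differed by -0.58 between ChHAYW and Ch (SE 0.18, limma adjusted p = 0.110). Irf9, which acts with STAT2 at target genes, had a difference of 0.42 (limma adjusted p = 0.230) between ChHAYW and Ch. Of 9 interferon regulatory factors 7 had a difference above 0 for ChGENE against Ch and 4 for ChHAYW against Ch, and Irf5 had 0.32 (limma adjusted p = 0.415) in the first.

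The 16 sensors and adaptors had medians of 0.36, 0.19 and -0.03 in the 3 comparisons. Ddx58, which encodes the RNA sensor RIG-I, differed by 0.82 (SE 0.26, limma adjusted p = 0.110) between ChHAYW and Ch, and Tlr3, a sensor of double-stranded RNA, by 0.55 (limma adjusted p = 0.258). Ticam1, the adaptor of Tlr3, differed by 0.70 between ChGENE and ChHAYW (SE 0.22, limma adjusted p = 0.367).

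The 52 measured type I target genes, 36 of them above background in all rats, had medians of 0.32 for ChGENE against Ch, 0.47 for ChHAYW against Ch and -0.08 for ChGENE against ChHAYW. The difference was above 0 in 43, 43 and 23 of the 52, against 33.9%, 33.4% and 49.1% of all probes. The all-probe shares here include dim probes, in which the shifts from Ch largely lay, and shares without dim probes are not given. The 52 genes are not separate observations. Of 33 of them, ChGENE rat 8 was highest of its diet for 26, and ChHAYW rats 3 and 5 were among the highest 2 for 31 and 30. How far the counts and medians of this and the other lists rest on these rats was not tested. At an unadjusted p under 0.05 with a change of 1.3-fold or more, 7, 10 and 2 were higher, against 3.47%, 3.05% and 3.09% of all probes. By the same rule 0 were lower in each comparison, against 21.1%, 19.7% and 2.85%, and 0 were called. Tor3a differed by 1.55 (SE 0.46, limma adjusted p = 0.0608) between ChGENE and Ch. Slfn3 differed by 1.70 (SE 0.51) and Helz2, a helicase, by 0.75 (SE 0.24) between ChHAYW and Ch, both at a limma adjusted p = 0.110.

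The 21 interferon gamma target genes had medians of 0.49, 0.16 and 0.20, and 0 were called. Irgm, a GTPase of the same defence as Gbp2, differed from Ch by 1.17 in ChGENE and 1.31 in ChHAYW (SE 0.43 and 0.41, limma adjusted p = 0.0920 and 0.110). Cxcl10, a chemokine that draws T cells, differed by 1.44 and 1.34 (SE 0.66 and 0.72, limma adjusted p = 0.173 and 0.247). Tap1, which carries peptides to class I molecules, differed by 0.85 (SE 0.36, limma adjusted p = 0.138) between ChGENE and Ch.

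Of 12 inhibitors, 11 had a difference above 0 for ChGENE against Ch and 7 for ChHAYW against Ch. Usp18, which removes ISG15 and silences the type I receptor, differed by 1.91 (SE 0.67, limma adjusted p = 0.110) between ChHAYW and Ch. Trim30 differed by 0.81 (SE 0.28, limma adjusted p = 0.0781) between ChGENE and Ch, and Socs3, an inhibitor of JAK kinases, by 0.72 (limma adjusted p = 0.523) between ChGENE and ChHAYW.

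The 19 checkpoint genes had medians of 0.09 for ChGENE against Ch, 0.00043 for ChHAYW against Ch and -0.00066 for ChGENE against ChHAYW, and 3 of them were above background on no array. Lgals9, which encodes the TIM-3 ligand galectin-9, differed by 0.89 (SE 0.31, limma adjusted p = 0.110) between ChHAYW and Ch. Sirpa, the receptor of CD47 on macrophages, differed by 0.97 (SE 0.27, limma adjusted p = 0.261) between ChGENE and ChHAYW, and Btla, an inhibitory receptor of lymphocytes, by -0.46 (SE 0.17, limma adjusted p = 0.114) between ChHAYW and Ch.

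The 15 genes of PD-L1 stability and transcription had medians of 0.0070, 0.0020 and 0.047. Nfkbia, the inhibitor of NF-kappa B, differed by -0.73 (SE 0.26, limma adjusted p = 0.115) and Stub1, a ubiquitin ligase, by -0.45 (SE 0.17, limma adjusted p = 0.127) between ChHAYW and Ch. Myc, a transcription factor, differed by -0.68 (SE 0.26, limma adjusted p = 0.488) between ChGENE and ChHAYW.

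Marker genes of liver cells were read beside the pathway genes, and no marker gene was called in any comparison. All 7 hepatocyte markers were above background in every rat, as labelled for liver. Before adjustment 4 of them were lower than in Ch in each kiwifruit diet, against 21.1% of all probes for ChGENE and 19.7% for ChHAYW. The hepatocyte medians were -0.42 in ChGENE and -0.46 in ChHAYW, beside all-probe medians of -0.16 and -0.18, or -0.02 and -0.01 with dim probes filtered out. Of 9 Kupffer cell and macrophage marker symbols, 9 had a difference from Ch above 0 in ChGENE and 7 in ChHAYW, and 0 passed before adjustment. Their medians were 0.67 and 0.47, beside all-probe medians of -0.16 and -0.18, or -0.02 and -0.01 with dim probes filtered out. The 9 symbols were read at 8 probes, so a probe was counted more than once in these counts and medians. In ChGENE and ChHAYW, the medians were 0.48 and 0.17 for endothelial, 0.31 and -0.02 for T and natural killer, and 0.52 and -0.66 for neutrophil markers. They were 0.25 and -0.15 for stellate, 0.04 and -0.01 for B cell, 0.03 and -0.05 for dendritic cell and -0.11 and -0.25 for cholangiocyte markers. The part of these cells in the pathway and target gene medians was not tested.

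The sum of T and natural killer cell markers was highest in the rats that led the interferon genes. Of the 11 markers, 4 were above background on all arrays, and such a sum follows its brightest genes. The summed level of 11 T and natural killer cell markers was 4.77 times the array's 75th percentile in ChGENE rat 8, 4.22 in ChHAYW rat 3 and 3.69 in ChHAYW rat 5, and these were the highest of all rats. ChGENE rats 5 and 4 followed with 3.29 and 3.02. All 8 Ch rats lay between 1.75 and 2.68, the ChGENE rats between 1.43 and 4.77 and the ChHAYW rats between 1.29 and 4.22. Cd3e, a defining T cell marker, was above background in 0 Ch, 2 ChGENE and 1 ChHAYW rats.

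The summed level of the 8 probes of Kupffer cell and macrophage markers was 99.1 and 97.7 in ChGENE rats 4 and 5, 78.4 in ChGENE rat 8, 75.5 in ChHAYW rat 5 and 52.7 in ChHAYW rat 3, with Ch at 21.9 to 56.9. ChGENE rats 4 and 5, a close pair, also had sums of 32.7 and 34.1 for 4 neutrophil markers, while every other rat had at most 1.63, among them ChGENE rat 8 at 0.861 and ChHAYW rats 3 and 5 at 1.25 and 0.908. These are the rats, with rat 8, in which Irf1 and Gbp2 were highest in ChGENE. The sum of 4 B cell markers was lowest of its diet in ChGENE rat 8 (1.23) and highest of its diet in ChHAYW rat 3 (2.70), with 1.69 in ChHAYW rat 5 and 1.71 to 2.72 in Ch. The sum of 6 dendritic cell markers was 0.285, 0.315 and 0.265 in ChGENE rat 8 and ChHAYW rats 3 and 5, each within the Ch range of 0.119 to 0.347. No marker gene was called in any comparison (limma, 0 of all marker genes). The part of these cells in the levels of the members was not tested.

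**Figure D5:**
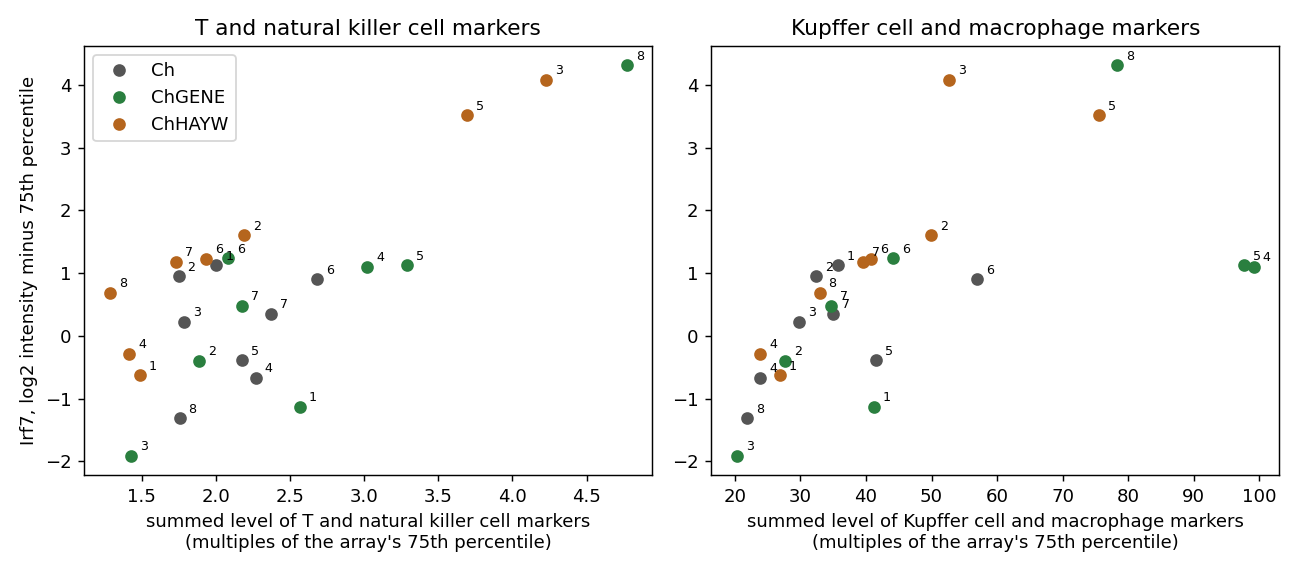
Irf7 level of each rat (log2 intensity minus the array's 75th percentile) against the summed level of T and natural killer cell markers (left, 11 genes) and of Kupffer cell and macrophage markers (right, 8 probes), both as multiples of the array's 75th percentile, coloured by diet and numbered by rat. The 3 rats with an Irf7 level above 3.5 have the 3 highest T and natural killer cell sums, from 3.69 to 4.77, whereas ChGENE rats 4 and 5 have the highest macrophage sums and Irf7 levels of at most 1.12.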

How the data were processed

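Total RNA of rat liver (RNA integrity number of at least 9.2 per the labels) was hybridised to 24 arrays of 62976 spots, 1 per rat and 8 per diet. The authors deposited intensities from Agilent Feature Extraction 10.10.1.1, background-subtracted and detrended, linear, and not scaled between arrays. The deposited value table held the same intensities (0 of 1511424 spots differed). Spots that the software marked as outliers were dropped, log2 intensities of a probe's spots averaged, and the array's 75th percentile subtracted. For 45 of 728808 probe values all spots were marked and were kept. There was no filter on dim probes. Groups came from the labels. Each pair of diets (16 arrays) was fitted with limma 3.58.1 (lmFit and eBayes, R 4.3.3) over 30367 probes with Benjamini-Hochberg adjustment, after a test on simulated data. The number of arrays limits the precision. A gene was read at its probe with the highest mean signal. From each role list the text names up to 3 genes with the smallest p, plus the 5 genes most like Cd274 and the 5 most like the other members. Ifng, Ifnb1, Pdcd1 and Pdcd1lg2 were added after their values were seen. The members and lists were chosen with earlier results of these data known. One gene is not reported here. Replicate numbers were checked for pairing. Alternatives were normexp with an offset of 50, other scalings, a filter on dim probes, all spots, 1 fit of all arrays, arrayWeights, trended and robust limma, the t-test of the methods, a replicate block and leaving out each rat. After the data were seen, the averaged close pairs, the dimmer Cd274 spot and no scaling were added.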

Additional observations from a re-analysis of the deposited data

Results flagged for a closer look

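In 3 of 30 groups, each a probe in a diet, 1 rat stood apart from the other 7 by more than Dixon's 95% critical value for 8 samples. Chance gives this in about 1 of 20 groups. The ratio is the gap to the next rat over the whole range. It was 0.750 for Mx1 in ChGENE, where rat 8 had 3.80 and the next rat 1.06. It was 0.546 for Mx2 in ChGENE, where the same rat had 6.71 and the next 5.54. It was 0.527 for Stat2 in ChHAYW, where rat 5 had 3.62 and the next 3.21.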

How the results depend on the processing

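Cd274 was not well above background in any Ch rat, and its signal over background limits its difference from Ch. Every alternative in which the member probes were called gave 0 for ChGENE against Ch and for ChGENE against ChHAYW, and 0 for ChHAYW against Ch except limma with arrayWeights, which called 1 (Stat2, -0.51, adjusted p = 0.0297). The Cd274 difference from Ch was -0.20 in ChGENE and -0.20 in ChHAYW with normexp, 1.84 in ChGENE and 1.89 in ChHAYW with no scaling between arrays. The filter on dim probes and the t-test of the methods gave no Cd274 value, and in the remaining alternatives, without leaving out rats, its sign was as reported. Pathway genes called, 0 in the reported fits, were 23 and 31 for ChGENE and ChHAYW against Ch with normexp, 10 and 8 with median scaling, 9 and 19 with arrayWeights, and 6 for ChGENE against Ch with all 24 arrays in 1 fit. Normexp called 10197 probes for ChGENE against Ch, 9994 of them lower, where the reported fit called 97, 76 of them lower. Of all probes, 4623 were called with median scaling, 2863 with 1 fit of all arrays, 3676 with arrayWeights, 245 with the t-test of the methods, 157 with the filter on dim probes and 0 with the close pairs averaged. For ChHAYW against Ch these fits called 3240, 0, 5703, 0, 0 and 0 probes, and normexp 11480. The cause was not tested.

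Small member differences changed sign. Irf1 for ChHAYW minus Ch was 0.013 with normexp, 0.0084 with quantile normalization, 0.0018 with cyclic loess and 0.012 with the 75th percentile over probes above background on all arrays, and its second probe was -0.10 with normexp. Mx2 was 0.10 with quantile normalization, 0.074 with cyclic loess and 0.12 with arrayWeights for ChGENE minus Ch, and -0.0022 with median scaling for ChGENE minus ChHAYW. With arrayWeights, Ifit3, Oas1a and Gbp2 were -0.054, -0.11 and -0.22 for ChHAYW minus Ch, and Mx1 and Ifit3 were 0.28 and 0.36 for ChGENE minus ChHAYW. With each rat left out in turn, Irf7 ranged from -0.077 to 0.81, Mx1 from 0.13 to 0.65, Ifit3 from -0.11 to 0.57 and Oas1a from -0.99 to -0.13 for ChGENE minus Ch, Irf1 from -0.20 to 0.044 for ChHAYW minus Ch, and Mx1 from -0.57 to 0.073, Mx2 from -0.17 to 0.14 and Ifit3 from -0.69 to 0.10 for ChGENE minus ChHAYW. In these fits 0 to 4957, 0 to 4588 and 0 to 33 probes were called in the 3 comparisons. The deposited value table was not run separately, since it held the same intensities.

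The replicate numbers did not pair the rats. Same-numbered rats had a median correlation of deviations of 0.00, -0.11 and -0.07 in the 3 comparisons, and it was over 0.1 in 3, 2 and 3 of 8 pairs. With the replicate number as a block, 0 member probes were called, and 4, 0 and 0 of all probes were called. The Cd274 difference of 1.22 for ChGENE minus Ch cannot move under the block, since each number holds 1 rat of each diet. Of 8 rats, 1, 0 and 0 correlated best with the rat of their own number.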
